A study of Homo sapiens with 6 samples.

Results

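The ADAM and ADAMTS-like genes are those protein-coding genes whose probe set is annotated with a symbol that begins with ADAM, pseudogenes and antisense RNAs left out. The rule found 24 genes among 14884 named genes, of which 19 are ADAM genes and 5 are ADAMTS-like (ADAMTSL) genes, each read by a single named probe set. It found 0 ADAMTS genes, so the ADAMTS proteinases themselves are not analysed here. Their transcripts were read on whole-transcript GeneChips hybridised with RNA of MDA-MB-231, an established human cell line from a triple-negative breast carcinoma, of mesenchymal appearance. The groups were NR1D1 knockout cells (3 arrays) and control cells (3 arrays), and all 6 were kept for 72 h with 200 µM hydrogen peroxide, so a difference that arose with the peroxide and one that was there before it cannot be told apart. NR1D1 encodes REV-ERBα, a heme-binding nuclear receptor that represses transcription. The sample titles call the replicates of each group biological. The labels do not say how the knockout was made, whether the knockout cells are 1 clone, or whether the replicates came from separate cultures. The spread behind each p-value is that between arrays of a group, and how much of it is technical cannot be told. No named probe set read NR1D1, and its transcript was not used to check the labels.

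ADAM proteins are membrane-anchored relatives of snake venom metalloproteinases. The catalytic ones cut the extracellular part off other membrane proteins, a step called shedding that releases growth factors, cytokines and adhesion receptors from the cell surface, and that prepares Notch receptors and the amyloid precursor protein for γ-secretase. Other ADAMs have lost the zinc-binding site and serve in adhesion. ADAMTS-like proteins share the thrombospondin repeats of the secreted ADAMTS enzymes but lack the catalytic domain, and lie in the extracellular matrix. In breast carcinoma the family is best known for the sheddases that release ligands of the EGF receptor.

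Values are the deposited log2 probe set values, and changes are NR1D1 knockout minus control on that scale, tested with limma and adjusted by the Benjamini-Hochberg method over all 14884 genes. A gene is called where its adjusted p is under 0.05, and the number of arrays limits the precision, with a median standard error of 0.101 for a log2 change. Over the named genes, arrays correlated at 0.9907 to 0.9934 within groups and at 0.9824 to 0.9853 between groups. Of the markers listed for the cell line, 6 of 7 had a named probe set and averaged between 6.74 and 11.93, and 3 of them were called. VIM (log2 change 0.34, adjusted p = 0.0337) and KRT18 (0.35, adjusted p = 0.0439) were higher and CD44 (-0.35, adjusted p = 0.0324) was lower in knockout arrays. ESR1 and PGR, the hormone receptor genes this line is known to lack, averaged 5.19 and 4.05 in knockout arrays and 5.19 and 3.99 in control arrays. EPCAM, an epithelial adhesion gene held to be low in this line, stood at 7.62 in knockout and 7.22 in control arrays (adjusted p = 0.0286). Markers of endothelial cells (3 of 4 measured) and fibroblasts (2 of 6 measured) averaged between 2.58 and 6.22, and 1 of these 5, the VEGF receptor gene KDR, was called, at 6.48 in knockout and 5.97 in control arrays (adjusted p = 0.00628).

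Several ADAM transcripts were lower in the knockout cells, and none passed the test in the other direction. Of the 24 genes, 5 fell (ADAM22, ADAM28, ADAM8, ADAM11 and ADAM19), or 20.8%, where 4.74% of all genes were called lower, and 0 rose, where 4.74% of all genes were called higher (9.49% in either direction). At an unadjusted p under 0.05 the counts were 10 lower and 0 higher, where 10.9% of all genes were lower and 11.9% higher by that rule. The log2 change was below 0 for 21 of the 24 genes, against 49% of all genes, and its median was -0.14, against 0.0039 over all genes. The 3 knockout values lay below the 3 control values for 11 of the 24 genes (45.8%), where 13.6% of all genes did so, and above them for 0, where 15.1% of all genes did so. In whole-culture RNA, fewer cells that carry a transcript and less of it per cell cannot be told apart. Only ADAM22 and ADAM28 passed the threshold without each array in turn, and the count of falls was 2 when control replicate 3 or knockout replicate 2 was left out and 3 when any of the other arrays was.

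**Figure D1:**
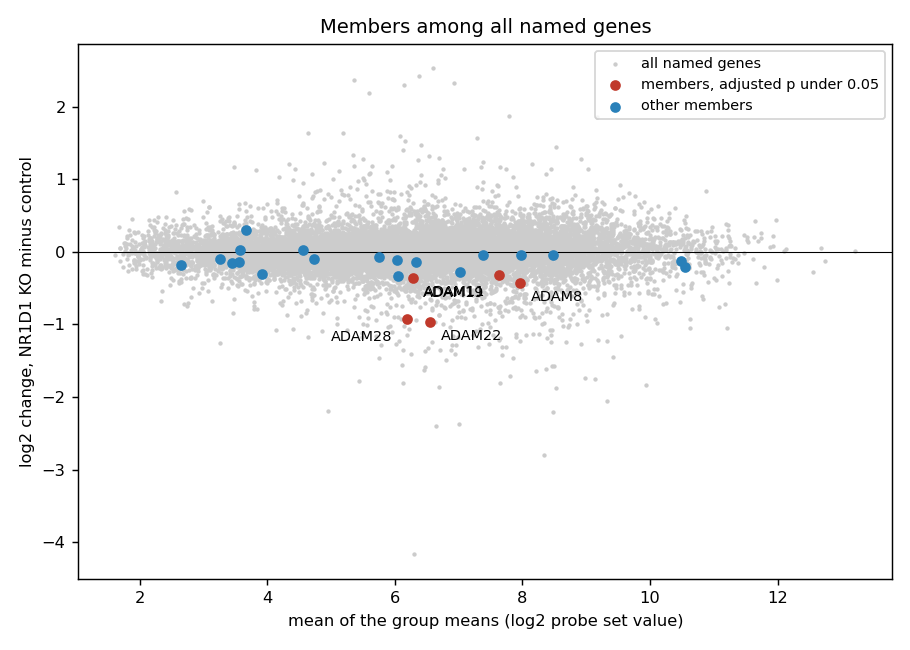
Log2 change (NR1D1 knockout minus control, vertical axis) against the mean log2 probe set value (horizontal axis) of every named gene in grey, with the 24 ADAM and ADAMTS-like genes in colour. The 5 called members, in red, lie below 0, and 16 of the other 19 do too.

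The plot of log2 change against level shows that the called members are neither the dimmest nor the brightest of the 24. The change of every member is set out by role in the plot of changes with their intervals.

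**Figure D2:**
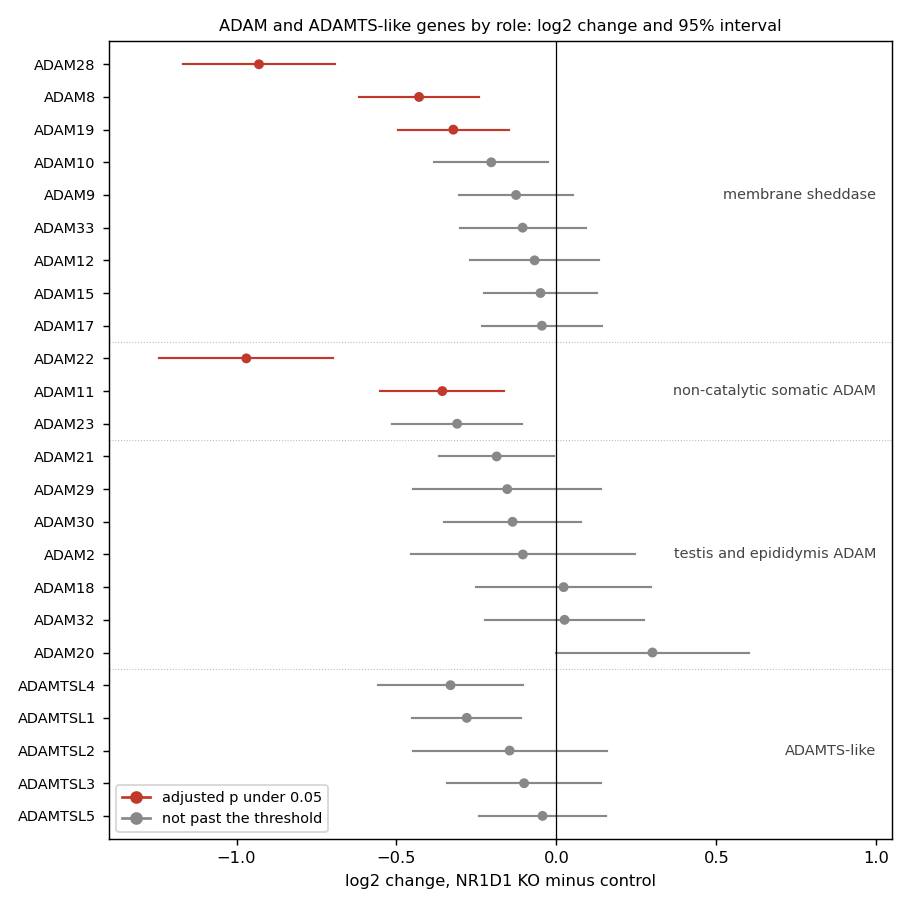
Log2 change (NR1D1 knockout minus control) of the 24 genes with its 95% interval from the limma fit, grouped by role from top to bottom. Red marks an adjusted p under 0.05. All 9 membrane sheddases, all 3 non-catalytic somatic ADAMs and all 5 ADAMTS-like genes lie below 0, and the 3 genes above 0 are testis and epididymis ADAMs.

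Among the 9 membrane sheddases 3 fell, ADAM28, ADAM8 and ADAM19, and all 9 measured below 0. ADAM28, a sheddase first described in lymphocytes and also known from carcinomas, had log2 values of 5.78, 5.65 and 5.73 in knockout arrays, against 6.49, 6.84 and 6.62 in control arrays. The highest knockout value was thus well under the lowest control value. ADAM28 averaged 5.72 ± 0.0658 in knockout and 6.65 ± 0.175 in control cells (SD, n = 3 each) and was 1.91-fold lower, with a log2 change of -0.93 ± 0.104 (SE; limma adjusted p = 0.00131). It passed the threshold in each of 15 alternative fits.

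ADAM8, a sheddase of leukocytes and of aggressive breast carcinoma, had values of 7.76, 7.65 and 7.82 in knockout arrays, against 8.13, 8.23 and 8.17 in control arrays. The groups did not overlap, and ADAM8 was 1.35-fold lower, with a log2 change of -0.43 ± 0.0823 (SE; limma adjusted p = 0.0152). ADAM8 was no longer called when control replicate 2, control replicate 3 or knockout replicate 2 was left out, each at an adjusted p between 0.0577 and 0.058. ADAM19, also called meltrin β, which can shed neuregulin, had values of 7.49, 7.51 and 7.43 in knockout arrays, against 7.84, 7.79 and 7.76 in control arrays. The groups were apart and each was narrow, and ADAM19 was 1.25-fold lower (log2 change -0.32 ± 0.0757, SE; limma adjusted p = 0.0336). It missed the threshold without any 1 of the 6 arrays, at adjusted p between 0.0626 and 0.116.

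ADAM8 and ADAM28 are also leukocyte genes. Of 6 leukocyte markers 2 had a named probe set, CD68, a lysosomal glycoprotein of macrophages that other cells also express, and CD14, a receptor for bacterial lipopolysaccharide. Their mean level ranged from 7.50 to 7.61 in knockout arrays and from 7.84 to 7.97 in control arrays. CD68 stood at 10.42 in knockout and 10.87 in control arrays (adjusted p = 0.0167), and CD14 at 4.66 in knockout and 4.95 in control arrays (adjusted p = 0.085). The other 4 markers were not analysed here, and the part of leukocyte transcripts in the result was not tested.

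The sheddases with the widest known range of substrates did not pass the test. ADAM10, which cuts Notch receptors, cadherins and the amyloid precursor protein, had values of 10.50, 10.40 and 10.44 in knockout arrays, against 10.61, 10.71 and 10.64 in control arrays. The knockout values were all below the control values, by a log2 change of -0.20 with a 95% interval of -0.38 to -0.03 (limma adjusted p = 0.161). ADAM10 passed in 1 of 15 alternative fits, the prior with trend and robust settings (adjusted p = 0.0343). ADAM9, a sheddase that can cut heparin-binding EGF-like growth factor, had values of 10.42, 10.47 and 10.38 in knockout arrays, against 10.51, 10.62 and 10.52 in control arrays. Its groups were also apart, with an interval of the log2 change from -0.30 to 0.05 (limma adjusted p = 0.393).

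ADAM17, the converting enzyme of tumour necrosis factor and the main sheddase of several EGF receptor ligands, had values of 8.35, 8.54 and 8.48 in knockout arrays, against 8.51, 8.48 and 8.52 in control arrays. The groups overlapped, with a log2 change of -0.05 and an interval of -0.23 to 0.14 (limma adjusted p = 0.803). ADAM15, which carries an integrin-binding motif, had values of 7.93, 7.91 and 8.01 in knockout arrays, against 8.06, 7.98 and 7.96 in control arrays. These overlapped too, with an interval of -0.23 to 0.13 (limma adjusted p = 0.77). ADAM12, of placenta and tumours, and ADAM33, named in studies of asthma, had values between 5.68 and 6.17 on the 6 arrays and log2 changes of -0.07 and -0.11, with overlapping groups. For ADAM9, ADAM12, ADAM15, ADAM17 and ADAM33 the lower ends of the intervals lay between -0.30 and -0.23, so falls of that size cannot be told from none here.

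All 3 non-catalytic somatic ADAMs, which lack a working zinc site and are best known as receptors and adhesion proteins of the nervous system, had knockout values below every control value, and 2 of them fell. ADAM22, a receptor for the secreted protein LGI1 at synapses, had values of 6.27, 6.05 and 5.87 in knockout arrays, against 7.04, 7.15 and 6.91 in control arrays. It averaged 6.06 ± 0.203 in knockout and 7.03 ± 0.12 in control cells (SD, n = 3 each) and was 1.96-fold lower, which gave the lowest log2 change of the 24 genes, -0.97 ± 0.119 (SE; limma adjusted p = 0.00201). The gap between the groups was wider than the range within either of them, and ADAM22 passed the threshold in each of 15 alternative fits.

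ADAM11, an adhesion protein of neurons, had values of 6.08, 6.07 and 6.15 in knockout arrays, against 6.51, 6.34 and 6.52 in control arrays. Control replicate 2 was the lowest control array, still above all knockout arrays, and ADAM11 was 1.28-fold lower (log2 change -0.36 ± 0.0847, SE; limma adjusted p = 0.0349). It passed without control replicate 2 (adjusted p = 0.0415) and missed the threshold without any other 1 array, at adjusted p between 0.0637 and 0.131. ADAM23, which like ADAM22 binds LGI1, had values of 3.76, 3.84 and 3.68 in knockout arrays, against 3.95, 4.13 and 4.12 in control arrays. Its groups were apart, but it missed the threshold (log2 change -0.31, interval -0.51 to -0.11, limma adjusted p = 0.0679), and at this dim signal the floor of the array can make a change too small.

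**Figure D3:**
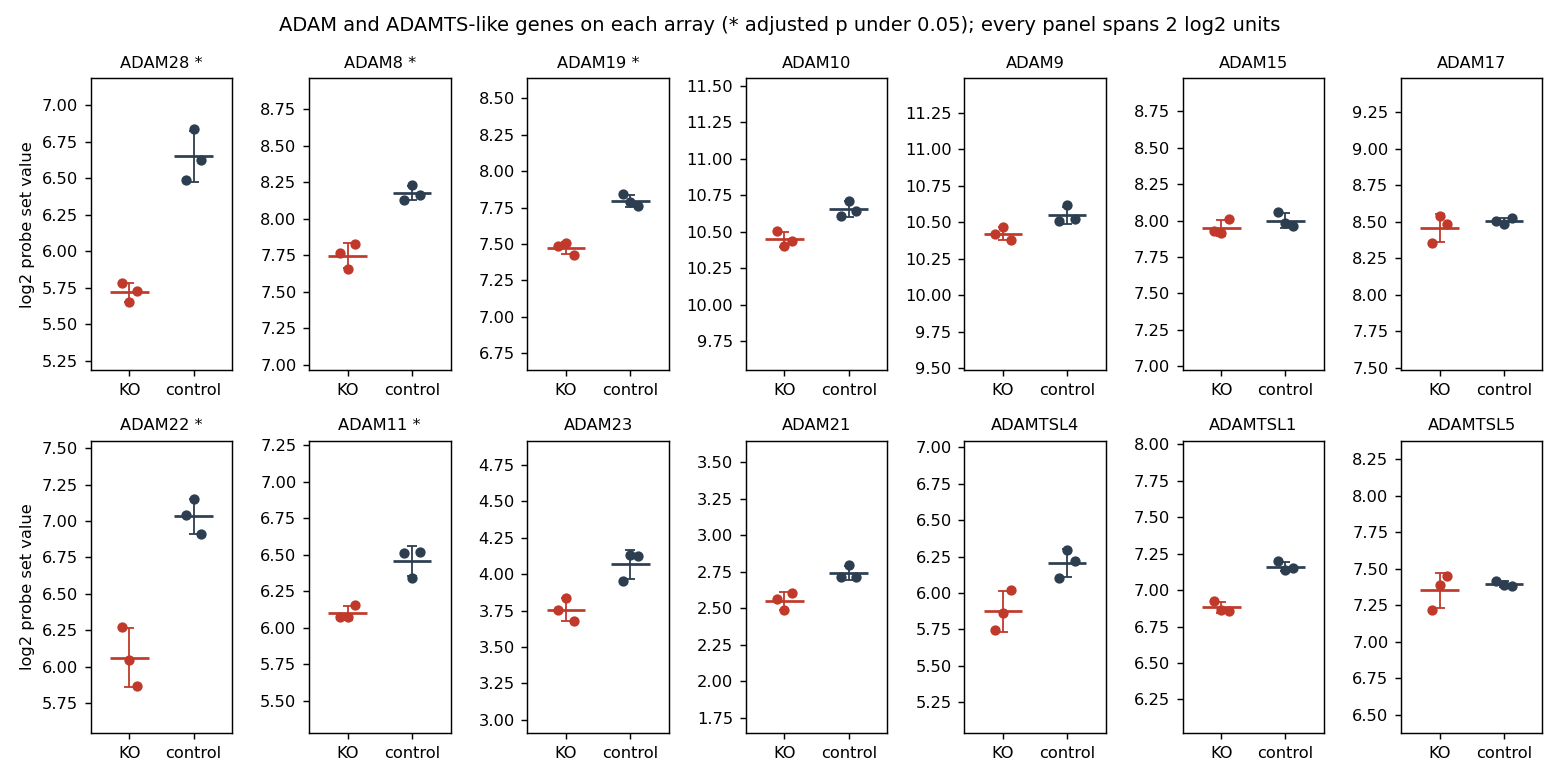
Log2 probe set values of 14 members on each array, with NR1D1 knockout (red, left) and control (dark, right) in each panel. Horizontal lines are means, bars are SD over 3 arrays, every panel spans the same range, and an asterisk marks an adjusted p under 0.05. ADAM22 and ADAM28 show the widest gaps between groups, and ADAM17, ADAM15 and ADAMTSL5 overlap.

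None of the 7 testis and epididymis ADAMs passed the test, and 4 measured below 0 and 3 above. Some testis and epididymis ADAMs serve sperm maturation and the meeting of sperm and egg. The values of these 7 genes lay between 2.49 and 4.79 on the 6 arrays, under the array medians of 5.18 to 5.22. All 7 testis marker genes were measured and 0 were called. ADAM21 had values of 2.57, 2.49 and 2.61 in knockout arrays, against 2.71, 2.79 and 2.71 in control arrays. Its groups were apart (log2 change -0.19, limma adjusted p = 0.201), and ADAM20, ADAM21 and their pseudogenes are close copies, which makes the gene of origin uncertain. ADAM20 had the only change of the 24 genes above 0.1, at 0.30 with an interval that reached 0 (limma adjusted p = 0.221). ADAM2, a subunit of the sperm protein fertilin, and ADAM18, ADAM29, ADAM30 and ADAM32 changed by between -0.15 and 0.03, with overlapping groups.

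None of the 5 ADAMTS-like genes passed the test and all 5 measured below 0. ADAMTSL1, also called punctin, had values of 6.92, 6.86 and 6.85 in knockout arrays, against 7.20, 7.14 and 7.15 in control arrays. The groups were narrow and apart, and ADAMTSL1 came just short of the threshold (log2 change -0.28 ± 0.0746, SE; limma adjusted p = 0.0527). It passed in 5 of 15 alternative fits. ADAMTSL4, a fibrillin-binding protein needed for the suspension of the eye lens, had values of 5.74, 5.86 and 6.02 in knockout arrays, against 6.10, 6.30 and 6.22 in control arrays. These groups were apart as well (log2 change -0.33, limma adjusted p = 0.0794). ADAMTSL4 passed in 1 of 14 alternative fits, the one without the dimmest 25% of genes (limma adjusted p = 0.0443). ADAMTSL5 had values of 7.22, 7.39 and 7.45 in knockout arrays, against 7.42, 7.39 and 7.38 in control arrays, which overlapped (adjusted p = 0.827). ADAMTSL2 and ADAMTSL3, matrix proteins of the same kind, changed by -0.15 and -0.10 with overlapping groups.

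The sequence upstream of the gene start is shown for the called genes that have an entry in the promoter table, as the window searched for the half-site of NR1D1 and for other motifs. The sequences are from RefSeq on GRCh38.p14, 250 bases that end at the base before the gene start, 5′ to 3′ on the strand of the gene. ADAM22 is at chr7:87934001-87934250 (plus strand), ADAM8 at chr10:133276869-133277118 (minus strand) and ADAM19 at chr5:157575776-157576025 (minus strand). Capitals mark GGGCGG, the GC box, on either strand.
ADAM22: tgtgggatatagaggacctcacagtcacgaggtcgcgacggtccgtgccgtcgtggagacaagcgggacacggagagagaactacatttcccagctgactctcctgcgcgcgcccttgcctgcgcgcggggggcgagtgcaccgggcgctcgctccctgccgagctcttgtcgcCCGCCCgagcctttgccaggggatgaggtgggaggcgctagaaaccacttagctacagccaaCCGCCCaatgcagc
ADAM8: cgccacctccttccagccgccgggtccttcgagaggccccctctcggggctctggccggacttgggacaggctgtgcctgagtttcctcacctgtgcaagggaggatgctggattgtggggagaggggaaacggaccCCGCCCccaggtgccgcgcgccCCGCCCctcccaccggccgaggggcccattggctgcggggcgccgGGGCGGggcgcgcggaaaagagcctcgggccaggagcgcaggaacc
ADAM19: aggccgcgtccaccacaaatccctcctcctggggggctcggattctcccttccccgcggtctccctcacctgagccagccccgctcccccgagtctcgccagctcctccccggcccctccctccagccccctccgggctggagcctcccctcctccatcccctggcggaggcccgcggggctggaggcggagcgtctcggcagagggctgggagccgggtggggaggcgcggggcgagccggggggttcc

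Of the 24 genes 17 matched an entry. Both strands were searched for AGGTCA (the half-site of REV-ERBα and related receptors), CACGTG (the E-box of clock factors), TGANTCA (the AP-1 site), the NF-κB consensus by name, GGGCGG and TATAAA, of which CACGTG and TGANTCA read alike on both strands and none contains another. The promoters of ADAM22 and ADAM8 held GGGCGG, as did 11 of the 17 and 42.3% of 27305 promoters in the table. Neither they nor ADAM19 held any of the others. AGGTCA was found for ADAM30 and ADAMTSL5, 2 of 17, against 12.1% of all promoters. CACGTG was found for ADAM10 and ADAM30 (6.49% of all promoters), the NF-κB consensus for ADAM10 (6.6%), TATAAA for ADAMTSL2 (11.1%) and TGANTCA for 0 of 17 (6.6%). By base composition, 65.6% of the ADAM22 window, 73.6% of the ADAM8 window and 76.4% of the ADAM19 window was G or C, against a median of 58% over all promoters. A match is only a run of letters, and a window without one says nothing about binding elsewhere.

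Genes that control ADAM proteins fell in 3 of 18 cases (16.7%) and rose in 0, where 4.74% of all genes were called in each direction. TSPAN15, a tetraspanin that escorts ADAM10 and steers it towards particular substrates, had values of 6.47, 6.31 and 6.50 in knockout arrays, against 7.25, 7.53 and 7.31 in control arrays. The groups were far apart and TSPAN15 was 1.91-fold lower (log2 change -0.94 ± 0.103, SE; limma adjusted p = 0.00121). RHBDF2, which encodes iRhom2, the protein that carries ADAM17 to the cell surface, had values of 7.65, 7.47 and 7.79 in knockout arrays, against 8.10, 8.08 and 8.09 in control arrays. It was 1.37-fold lower (limma adjusted p = 0.0236). TIMP3, the tissue inhibitor of metalloproteinases that also blocks ADAM17 and ADAM10, had values of 10.83, 10.88 and 10.78 in knockout arrays, against 11.23, 11.16 and 11.16 in control arrays. It was 1.28-fold lower (limma adjusted p = 0.0248), so an inhibitor gene and genes of partner proteins fell in the same cells. The regulators had a median log2 change of -0.02. The count was 2 without knockout replicate 3 and 1, TSPAN15, without any other 1 array: RHBDF2 then had adjusted p between 0.058 and 0.0794, and TIMP3 missed without each array (adjusted p between 0.0545 and 0.0913).

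Genes whose proteins are cut by ADAMs moved in both directions. Of 35 measured (of 45 listed), 10 fell (28.6%) and 6 rose (17.1%), where 4.74% of all genes were called in each direction, and the median log2 change was -0.01. The list is broad and holds inflammatory and adhesion genes, and it was drawn up with earlier results of these data known. CXCL16, a membrane-bound chemokine released by ADAM10, had values of 5.07, 5.27 and 5.34 in knockout arrays, against 6.94, 7.01 and 7.14 in control arrays. It was 3.49-fold lower (limma adjusted p = 5.28e-05), and ICAM1, an adhesion molecule bound by leukocytes, was 3.57-fold lower. NOTCH2, a receptor that ADAM10 cuts once a ligand binds, had values of 10.14, 10.13 and 10.03 in knockout arrays, against 11.20, 11.03 and 11.22 in control arrays. It was 2.07-fold lower (limma adjusted p = 0.000267). SDC4, the heparan sulphate proteoglycan syndecan 4, had values of 10.88, 10.60 and 10.57 in knockout arrays, against 11.77, 11.64 and 11.80 in control arrays, and was also 2.07-fold lower (limma adjusted p = 0.000749).

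Among the rises, PTK7, a Wnt co-receptor with a pseudokinase domain, had values of 7.40, 7.69 and 7.89 in knockout arrays, against 6.57, 6.70 and 6.27 in control arrays. It was 2.21-fold higher (limma adjusted p = 0.00272), and the desmosomal cadherin gene DSG2 was 3.63-fold higher. A few others were picked out after their values were seen. The Notch ligand gene JAG1 rose, with values of 9.50, 9.61 and 9.64 in knockout arrays, against 8.81, 8.73 and 8.65 in control arrays (limma adjusted p = 0.000673). Its direction was opposite to that of NOTCH2. The receptor genes NOTCH1 and NOTCH3 and the ligand gene DLL1 were also measured and were not called. Their log2 changes were 0.26, -0.06 and -0.01 (limma adjusted p = 0.189, 0.837 and 0.951). Of the EGF receptor ligands, HBEGF had values of 7.68, 7.85 and 7.89 in knockout arrays, against 8.77, 8.71 and 8.63 in control arrays, and was 1.86-fold lower (limma adjusted p = 0.000747). EREG, which encodes epiregulin, had values of 6.95, 6.82 and 6.86 in knockout arrays, against 6.20, 6.50 and 6.46 in control arrays, and was 1.4-fold higher (limma adjusted p = 0.02). Both groups were apart for these genes, in opposite directions. The EGF receptor ligand genes BTC and EPGN were also measured and were not called. Their log2 changes were -0.11 and -0.0013 (limma adjusted p = 0.563 and 0.997). EREG passed without control replicate 2 (adjusted p = 0.0343) and missed without any other 1 array (adjusted p between 0.0504 and 0.0608). The count of rises in the list was 3 without control replicate 1 or knockout replicate 2.

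**Figure D4:**
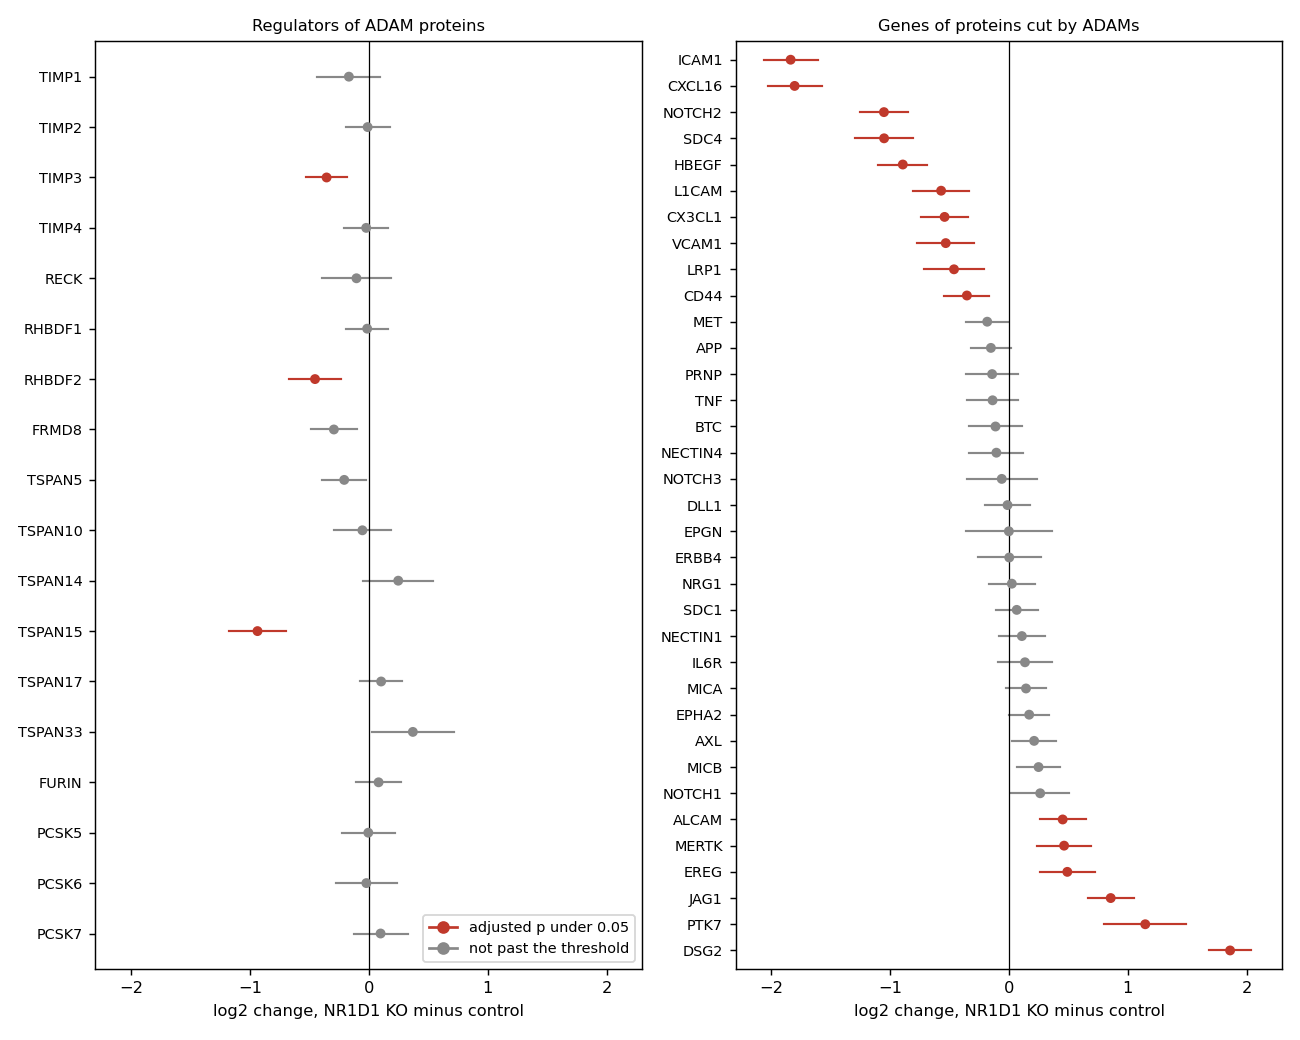
Log2 change (NR1D1 knockout minus control, horizontal axis) with its 95% interval for 18 genes that regulate ADAM proteins (left) and 35 genes of proteins that ADAMs cut (right). Red marks an adjusted p under 0.05, with 3 falls on the left and 10 falls and 6 rises on the right.

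Single calls in the short lists that follow are given as values of those genes, since 9.49% of all genes were called. Of 5 measured γ-secretase genes 1 fell, the presenilin gene PSEN2, with values of 6.58, 6.58 and 6.51 in knockout arrays, against 6.81, 7.12 and 7.05 in control arrays (1.35-fold lower, limma adjusted p = 0.029). It passed without control replicate 1 (adjusted p = 0.0195) and missed without any other 1 array (adjusted p between 0.066 and 0.103). Of 20 measured substrates and matrix partners of ADAMTS enzymes 2 rose (10%) and 1 fell (5%), which for the falls is near the 4.74% of all genes called in each direction. LTBP1, which holds latent TGF-β in the matrix, had values of 7.84, 7.82 and 7.78 in knockout arrays, against 7.09, 7.20 and 7.03 in control arrays, and was 1.63-fold higher (limma adjusted p = 0.00148), and the fibronectin gene FN1 was 1.78-fold higher. FBN1, whose product fibrillin 1 is bound by ADAMTS-like proteins, had values of 7.40, 7.64 and 7.51 in knockout arrays, against 8.38, 8.50 and 8.36 in control arrays, and was 1.86-fold lower (limma adjusted p = 0.00087). Of 3 measured genes that modify thrombospondin repeats, POFUT2, the fucosyltransferase that ADAMTS and ADAMTS-like proteins need for secretion, fell, with values of 6.54, 6.70 and 6.80 in knockout arrays, against 7.10, 7.04 and 7.08 in control arrays (1.31-fold lower, limma adjusted p = 0.03). It passed without knockout replicate 3 (adjusted p = 0.0331) and missed without any other 1 array (adjusted p between 0.0664 and 0.0985). The other measured genes of this list went the other way and were not called. DPY19L1 had a log2 change of 0.43 (limma adjusted p = 0.106) and DPY19L3 of 0.33 (limma adjusted p = 0.0824), each with knockout values above all control values.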

How the data were processed

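Per the labels' protocols, total RNA was turned into sense cDNA with a whole-transcript kit and labelled with biotin. The authors deposited 1 value per probe set and array, read here as log2 because all lie between 1.16 and 13.75. The sources used here do not give how they normalized and summarized the probes. The array medians lie between 5.18 and 5.22. Of 53617 probe sets 16098 have 1 gene symbol in the platform annotation, 0 have several and 37519 have none and stay unnamed. All 16098 matched RefSeq (GRCh38.p14) by gene identifier. The probe set with the highest mean stood for a gene, which gave 14884 genes, with no filter on dim ones.

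Groups came from the sample titles. All genes were fitted in R 4.3.3 by limma 3.58.1 (eBayes after lmFit, two-sided, Benjamini-Hochberg, threshold 0.05), a step tested on simulated data. Figures used matplotlib 3.10.9. The members and lists were chosen with earlier results of these data known. Values per array are given for members that were called, whose groups did not overlap or that were among the 8 with the highest mean, and for ADAM10, ADAM17 and ADAM9. Up to 6 called genes with the largest change are named from each list. Alternatives were quantile normalization, median centring, a filter on the dimmest 25% or 50% of genes, means of probe sets, testing every probe set, another prior, array weights, a replicate block, leaving out each array, and an unadjusted p with 1.5-fold.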

Additional observations from a re-analysis of the deposited data

How the results depend on the processing

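ADAM22 and ADAM28 were lower and past the threshold in all 15 alternative fits of a single gene. Members called lower, 5 in the main test, were 6 with quantile normalization, with array weights and without the dimmest 50% of genes. They were 7 without the dimmest 25% of genes and with trend and robust settings. Adjusting over every probe set, named or not, left 539 genes called in all, 2 members lower, 1 regulator lower, 3 substrate genes higher and 6 lower, 0 γ-secretase genes, 0 lower genes of thrombospondin repeat modification, and 13 calls over the pathway lists, a setting with 53617 tests. An unadjusted p with a 1.5-fold change gave 558 genes, 2 members lower, 1 regulator lower, 3 substrate genes higher and 5 lower, 0 γ-secretase and 0 lower modification genes, and 12 calls over the lists, where the main test gave 1412 genes and 24 list calls. Modification genes called higher, 0 in the main test, were 1 without the dimmest 25% of genes, 2 without the dimmest 50%, 1 with trend and robust settings and 1 with the replicate block; the cause was not tested.

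Same-numbered arrays did not deviate together (correlations of 0.0547, 0.0681 and -0.106), and not every array correlated best with its own number. The numbers thus gave no sign of pairing the samples, but deviations from means of 3 arrays cannot exclude it. With the replicate block 3 members, 0 γ-secretase genes and 0 lower modification genes were called, and 1050 genes in all; ADAM19 (adjusted p = 0.0749) and ADAM11 (adjusted p = 0.0644) were the members lost. Leaving out 1 array gave 723 to 1049 genes, 2 to 3 members lower, 1 to 2 regulators lower, 3 to 5 substrate genes higher, 7 to 8 lower, 0 to 1 γ-secretase gene, 0 to 1 modification gene lower and 15 to 18 list calls. Of members that were not called, the log2 change crossed 0 when 1 array was left out for ADAM17 (-0.086 to 0.0067), ADAM2 (-0.264 to 0.024), ADAM18 (-0.077 to 0.140), ADAM32 (-0.087 to 0.086) and ADAMTSL5 (-0.092 to 0.024). No detection calls were at hand, so the floor of the array limits the dim testis ADAMs.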

Other observations

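Of the symbols left out by the rule, the pseudogene ADAM21P1 had values of 1.94, 2.15 and 1.88 in knockout arrays, against 2.76, 2.82 and 2.43 in control arrays (log2 change -0.68, limma adjusted p = 0.0123). The groups were apart at a very dim signal. The other 5 such symbols (ADAM20P1, ADAM3A, ADAM6, ADAMTS7P1 and ADAMTS9-AS2) had adjusted p between 0.411 and 0.855.

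The 5 measured coding genes on each side of a member in genome order were set beside it after the values were seen. None of the 10 neighbours of ADAM22 was called, and their median log2 change was 0.04. The neighbours of ADAM28 had a median of 0.10 with 0 lower and 1 higher, and those of ADAM11 a median of 0.06 with 0 lower and 2 higher. Among the 10 neighbours each of ADAM8 and ADAM19 none was called. ADAM17 and ADAMTSL2 differed from their neighbours in another way. All 10 neighbours of ADAM17 measured above 0, with a median of 0.26 and 4 called higher, while ADAM17 itself changed by -0.05. The 10 neighbours of ADAMTSL2 had a median of 0.27, with 1 below 0 and 3 called higher, while ADAMTSL2 itself changed by -0.15. Around ADAM30 the direction was the reverse. There 9 of 10 neighbours measured below 0, with a median of -0.17 and 3 called lower, and ADAM30 changed by -0.14.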
